A study of Mus musculus with 10 samples.

Results

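Cdx2, Eomes, Hand1, Gata2, Gata3, Tfap2a, Tfap2c, Tead4, Elf5 and Msx2, transcription factors that act in the trophectoderm or in the trophoblast cells that come from it, were followed gene by gene across mouse ES cells that had lost Pontin, lost Oct4 or carried an shRNA against the long noncoding RNA linc1253. The genes were chosen by name and matched to the Ensembl IDs of both deposited mRNA tables, which gave 10 of 10 genes among 22713 gene IDs. Tfap2a and Tfap2c were found under their older symbols Tcfap2a and Tcfap2c.

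Pontinf/f; CreER ES cells carry floxed alleles of Pontin, a AAA+ ATPase also called Ruvbl1, and a Cre that is activated by 4-hydroxytamoxifen (OHT). They were sequenced untreated (WT) and 3 and 4 days after OHT (OHT 3D and OHT 4D), with 1 library each. ZHBTc4 ES cells, in which tetracycline shuts off Oct4, gave 1 library 2 days after tetracycline (Tc 2D), 2 libraries 4 days after infection with a pLKO control lentivirus, 2 libraries 4 days after a pLKO lentivirus against linc1253, and, untreated, 1 Pontin and 1 GFP ChIP library. The control that was sequenced and normalized with Tc 2D is thus the WT library of another ES cell line, so the line and the loss of Oct4 cannot be told apart in that comparison. OHT 3D, OHT 4D and Tc 2D are all set against the same WT library. The cells were grown on feeder fibroblasts or without them, and the methods do not say which held for these libraries. The labels do not tell whether the replicates of the shRNA groups are separate cultures, so their p-values measure the spread between these libraries only.

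The trophectoderm is the first epithelium of the mouse embryo and gives rise to the trophoblast of the placenta. In the outer cells of the embryo low Hippo signalling lets Yap1 enter the nucleus, where it acts through Tead4 to switch on Cdx2, with Gata3 acting in parallel. Cdx2, Eomes, Elf5 and Tfap2c then hold the trophoblast stem cell state, and Hand1 drives the formation of trophoblast giant cells. Oct4 and Cdx2 restrain each other, and ES cells that lose Oct4 are known to turn to trophoblast. Several of these factors also serve elsewhere, among them Eomes and Hand1 in mesoderm, Gata2 in blood, and Tfap2a and Msx2 in surface ectoderm and neural crest.

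The proximal promoters of the members that were higher at Tc 2D against both available controls are shown here because the Pontin ChIP was read at gene starts. RefSeq promoters of 7 of the 10 members, with 10 start sites, were in the table of assembly GRCm38.p6, and each of the 10 matched NCBIM37 at exactly 1 place. Hand1, Tfap2c and Tead4 had no entry. The sequence printed is the 250 bases before the RefSeq start, 5′ to 3′ on the strand of the gene, with NCBIM37 coordinates. Capitals mark the octamer ATGCAAAT or an AP-2 motif (GCCNNNGGC), searched on both strands.
Cdx2 (chr5:148118826-148119075, minus strand): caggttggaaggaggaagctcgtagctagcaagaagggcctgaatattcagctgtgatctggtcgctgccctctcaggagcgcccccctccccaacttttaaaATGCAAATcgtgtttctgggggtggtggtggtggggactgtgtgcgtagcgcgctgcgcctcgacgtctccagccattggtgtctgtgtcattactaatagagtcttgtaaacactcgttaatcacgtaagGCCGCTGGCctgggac
Gata3 (chr2:9800228-9800477, minus strand): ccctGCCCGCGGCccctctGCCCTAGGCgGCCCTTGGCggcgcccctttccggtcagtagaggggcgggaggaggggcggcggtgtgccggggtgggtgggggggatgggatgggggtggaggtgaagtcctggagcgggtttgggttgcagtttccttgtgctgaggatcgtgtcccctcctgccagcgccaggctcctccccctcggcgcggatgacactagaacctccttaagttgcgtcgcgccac
Eomes (chr9:118387057-118387306, plus strand): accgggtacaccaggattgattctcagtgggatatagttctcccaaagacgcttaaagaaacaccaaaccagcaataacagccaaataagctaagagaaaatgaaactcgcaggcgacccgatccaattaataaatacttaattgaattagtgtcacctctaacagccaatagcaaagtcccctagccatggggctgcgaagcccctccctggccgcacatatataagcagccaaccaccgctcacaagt
Gata2 (chr6:88143635-88143884, plus strand): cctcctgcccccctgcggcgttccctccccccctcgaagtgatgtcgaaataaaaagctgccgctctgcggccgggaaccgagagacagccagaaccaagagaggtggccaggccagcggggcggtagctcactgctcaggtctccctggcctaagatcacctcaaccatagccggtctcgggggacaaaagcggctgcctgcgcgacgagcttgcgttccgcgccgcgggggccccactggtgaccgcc
Msx2 (chr13:53568150-53568399, minus strand): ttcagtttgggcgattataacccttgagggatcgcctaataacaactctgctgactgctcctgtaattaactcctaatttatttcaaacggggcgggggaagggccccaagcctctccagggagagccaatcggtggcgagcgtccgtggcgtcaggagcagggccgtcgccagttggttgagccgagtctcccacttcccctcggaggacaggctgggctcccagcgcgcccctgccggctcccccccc

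The 250 bases before the Cdx2 start held 1 octamer, the motif that Oct4 and other POU factors read, beginning 147 bases before the start, and 1 AP-2 motif, beginning 16 bases before it. The octamer was in 1.60% of the 32851 promoters of this length, and among the 10 start sites of members only that of Cdx2 held it. Gata3 had 3 AP-2 motifs that did not overlap, and 13.7% of all promoters had at least 1. It was in 3 of the 10 start sites of members, the third being the second start of Gata2, beginning 222 bases before it. The printed promoters of Eomes, Gata2 and Msx2 held neither motif. They also held no TEAD motif (GGAATG), which was in 12.6% of all promoters and in 2 of the 10 start sites of members, namely the upstream start of Elf5 and a second start of Gata2. No member start site had a GATA motif (AGATAA, 9.99% of all promoters) or a T-box motif (AGGTGTGA, 1.12%), and a CDX motif (TTTATG, 10.8%) stood at the upstream start of Tfap2a and the downstream start of Elf5. GC content ranged from 46.4% at Eomes to 74.0% at the second start of Gata2, beside a median of 52.4% over all promoters. These matches describe letters in a window and not binding.

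Reads on genes ranged from 17187595 to 37951742 over the 8 mRNA libraries. Ruvbl1 had a CPM (reads scaled to library size after TMM normalization) of 198 in WT and of 33.3 and 50.9 after 3 and 4 days of OHT, and Pou5f1, which encodes Oct4, had 301 in WT and 21.1 after tetracycline. Ruvbl1 itself was at 85.0 after tetracycline, below WT and below the 166 and 186 of the ZHBTc4 controls. Pou5f1 had 296 and 347 in the OHT libraries and 642 and 582 in the ZHBTc4 controls. The reads of linc1253 itself were not analysed here. A log2-fold-change below is a difference in log2(CPM + 1), which understates the change of genes at a low level, and a gene was called where it passed 0.58 in either direction among genes above a CPM of 1 in at least 1 library of the table. Folds are ratios of CPM with no pseudocount, with a 95% interval that covers the counting of reads alone. With 1 library per condition these differences have no replicate check and carry no p.

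Per kb of merged exon, the members began at very different levels. In WT, Tfap2c was highest at 52.1 CPM per kb, followed by Tead4 at 8.28, Eomes at 1.82 and Gata2 at 1.25, and each of these steps was larger than the counting error of the reads. The other 6 members lay at or below 0.255 CPM per kb, on 0 to 14 reads each, and neighbours in that part of the order, from Msx2 through Tfap2a, Hand1, Gata3 and Cdx2 to Elf5, did not differ beyond counting error. At Tc 2D the order was led by Hand1 at 31.0 CPM per kb, then Tfap2c at 23.2, Eomes at 10.6, Gata2 at 8.66 and Tead4 at 7.96. Cdx2 (4.08), Msx2 (3.47) and Gata3 (3.35) lay close together, and the neighbours Cdx2 and Msx2, Msx2 and Gata3, and Gata2 and Tead4 did not differ beyond counting error. Tfap2a, at 0.609, and Elf5, at 0.0899 CPM per kb, were the lowest there.

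**Figure D1:**
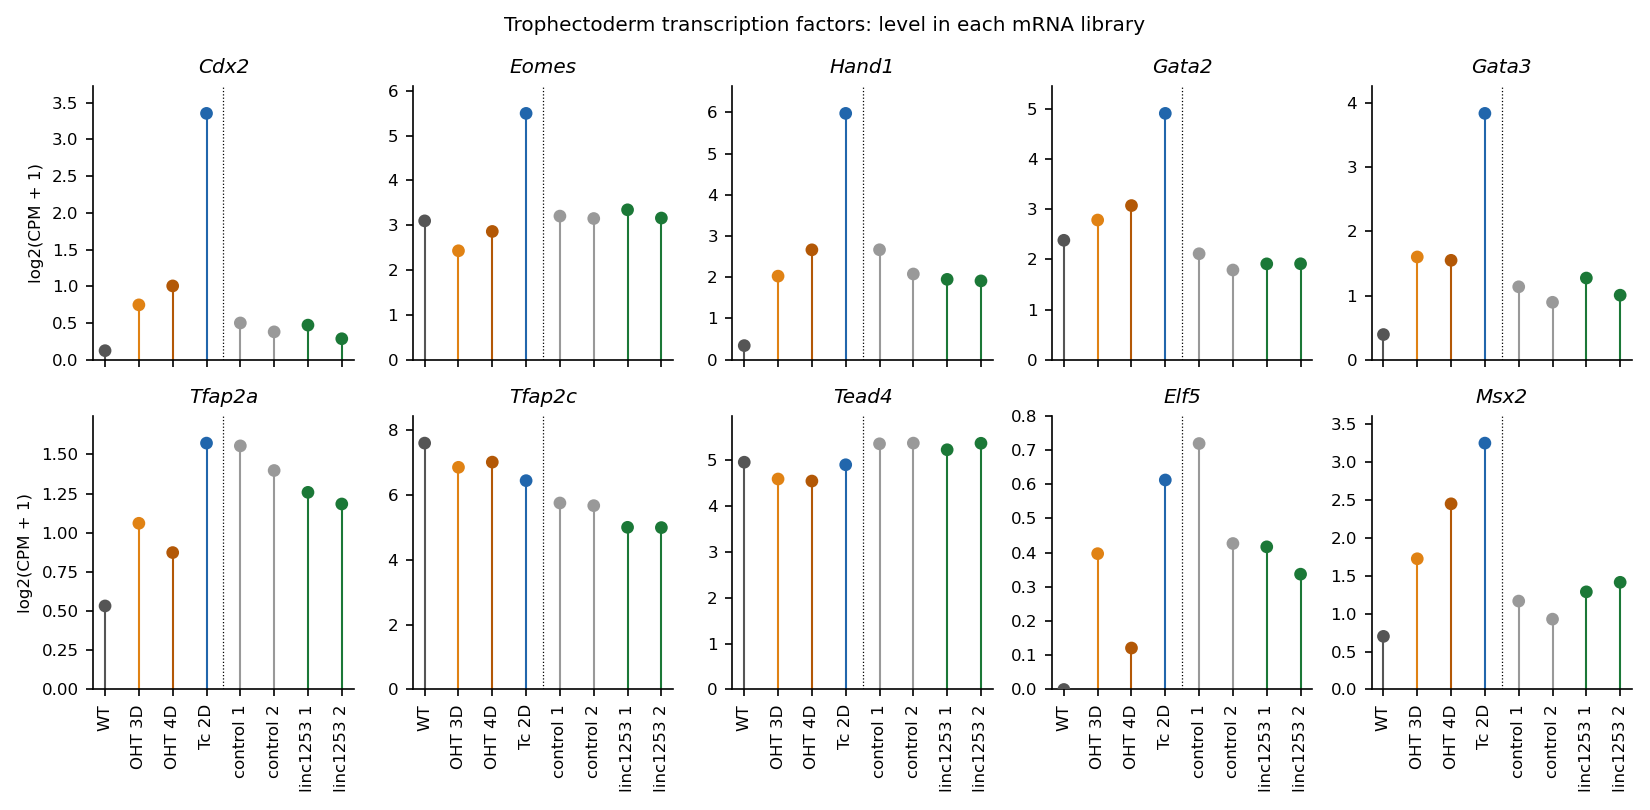
Level of each of the 10 members in the 8 mRNA libraries, as log2(CPM + 1) on an axis that starts at 0 and has its own range per gene; each point is 1 library, and the dotted line divides the 2 tables, which were normalized separately. Hand1, Cdx2, Gata3, Eomes, Gata2 and Msx2 peak at Tc 2D, while Tfap2c is highest in WT and lowest in the linc1253 libraries.

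Loss of Oct4 was accompanied by higher mRNA of most members. At Tc 2D against WT, 7 of the 9 members that passed the filter were called higher (Cdx2, Eomes, Hand1, Gata2, Gata3, Tfap2a and Msx2) and 1 lower (Tfap2c), beside 23.9% of 13449 genes called higher and 25.8% called lower. Elf5 did not pass the filter in either table, and Tead4 was not called. Of the 9 that passed, Eomes, Gata2, Tfap2c and Tead4 were above a CPM of 1 in WT itself, whereas Cdx2, Hand1, Gata3, Tfap2a and Msx2 passed only through another library, so the count above is a description and not a measure of how often such genes respond.

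Cdx2 (ENSMUSG00000029646, chr5:148112381-148118846, minus strand), the caudal homeobox factor required for the trophectoderm, had a CPM of 0.0894 in WT, 0.679 and 1.01 after 3 and 4 days of OHT, and 9.23 after tetracycline. In the ZHBTc4 control libraries it had 0.415 and 0.301. The Tc 2D library was above every other library, on 262 reads against 2 in WT, a fold of 103 (95% counting interval 28.3 to 857) and a log2-fold-change of 3.23. Against the mean of the ZHBTc4 controls the deposited CPM was 25.8-fold higher.

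Eomes (ENSMUSG00000032446, chr9:118387330-118395250, plus strand), a T-box factor of trophoblast stem cells, had a CPM of 7.55 in WT, 4.39 and 6.26 after 3 and 4 days of OHT, and 44.1 after tetracycline, and 8.21 and 7.87 in the ZHBTc4 controls. It was thus low but clearly counted in undepleted cells of both lines, at nearly the same level, and 5.83-fold (4.96 to 6.89) above WT at Tc 2D. Elf5 (ENSMUSG00000027186, chr2:103251845-103291146, plus strand), an ETS factor of trophoblast stem cells, had 0 reads in WT, 7 and 2 reads after 3 and 4 days of OHT (0.317 and 0.0876 CPM), and 15 after tetracycline (0.529 CPM). Against the limit of 3 reads that a count of 0 allows, and with its own reads taken as exact, Elf5 was at least 2.36-fold higher at OHT 3D and at least 3.94-fold higher at Tc 2D, while the counting error of both libraries lowers the 95% limit to 1.46 and 2.83. The ZHBTc4 control libraries had 0.646 and 0.344, on either side of the value at Tc 2D.

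Gata3 (ENSMUSG00000015619, chr2:9778705-9811661, minus strand), which acts beside Cdx2 in the outer cells of the embryo, had a CPM of 0.313 in WT, 2.04 and 1.93 after 3 and 4 days of OHT, and 13.3 after tetracycline, with 1.20 and 0.860 in the ZHBTc4 controls. It was 42.6-fold above WT at Tc 2D (20.5 to 107). Gata2 (ENSMUSG00000015053, chr6:88143885-88157024, plus strand), a GATA factor of trophoblast giant cells and of blood progenitors, had 4.20 in WT, 5.88 and 7.40 after 3 and 4 days of OHT, and 29.0 after tetracycline, with 3.32 and 2.45 in the ZHBTc4 controls. Both GATA genes had their highest level in the Tc 2D library, where Gata2 was 6.90-fold above WT (5.57 to 8.64). Against the mean of the ZHBTc4 controls the folds were closer, 12.9 for Gata3 and 10.05 for Gata2.

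Hand1 (ENSMUSG00000037335, chr11:57642207-57646320, minus strand), the basic helix-loop-helix factor of trophoblast giant cells, had a CPM of 0.268 in WT, 3.08 and 5.34 after 3 and 4 days of OHT, and 61.8 after tetracycline. Its log2-fold-change of 5.63 at Tc 2D was the largest of the 10 members. The ZHBTc4 control libraries had 5.35 and 3.23, far above WT, so the fold at Tc 2D was 231 (106 to 629) against WT but 14.4 against the mean of those controls. Msx2 (ENSMUSG00000021469, chr13:53562250-53568443, minus strand), a homeobox gene that responds to BMP signals, had 0.626 in WT, 2.31 and 4.47 after 3 and 4 days of OHT, and 8.53 after tetracycline, with 1.25 and 0.903 in the ZHBTc4 controls. At Tc 2D it was 13.6-fold above WT (7.97 to 25.3) and 7.94-fold above the control mean.

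The AP-2 genes differed from each other. Tfap2c (ENSMUSG00000028640, chr2:172375093-172384122, plus strand), which encodes AP-2 gamma, a factor of both trophoblast and germ cells, had a CPM of 192 in WT, 114 and 127 after 3 and 4 days of OHT, and 85.5 after tetracycline, but 52.7 and 49.7 in the ZHBTc4 controls. The Tc 2D library therefore lay below WT, with a fold of 0.446 (0.424 to 0.469), and above both controls of its own line, with a fold of 1.67. Tfap2a (ENSMUSG00000021359, chr13:40811044-40829192, minus strand), which encodes AP-2 alpha, had 0.447 in WT, 1.09 and 0.832 after 3 and 4 days of OHT, and 1.97 after tetracycline, and 1.94 and 1.63 in the ZHBTc4 controls. It was 4.41-fold higher (2.23 to 9.71) at Tc 2D than in WT but only 1.11-fold above the control mean.

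Tead4 (ENSMUSG00000030353, chr6:128174306-128250841, minus strand), the DNA-binding partner of Yap1 that stands at the head of this pathway, had a CPM of 29.8 in WT, 22.9 and 22.2 after 3 and 4 days of OHT, and 28.6 after tetracycline, with 39.6 and 40.0 in the ZHBTc4 controls. Its fold at Tc 2D was 0.961 with an interval of 0.866 to 1.07, and its log2-fold-change was -0.06, or 0.26 with library-size scaling without TMM. Tead4 and Tfap2c, the members that were highest in WT, were thus those that were not called higher at Tc 2D against WT, along with Elf5, which was too low to be tested.

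Since the labels put Tc 2D and the shRNA libraries in the same line, Tc 2D was also set against the mean of the 2 ZHBTc4 control libraries with all 8 libraries on a common median-ratio scale. These controls carry a lentivirus and come from the other table, so virus, table and depletion cannot be told apart there. The log2-fold-change was 3.77 for Hand1, 3.12 for Gata2, 3.03 for Cdx2, 2.96 for Gata3, 2.49 for Eomes and 2.34 for Msx2, so these members were called higher against either control. Tfap2c turned from -1.16 to 0.92 and was called higher, and Tfap2a fell short of a call at 0.22. In all, 7 members were called higher and 0 lower, beside 24.3% and 23.9% of 13566 genes. Cdx2, below a CPM of 1 in both controls, passed the filter there only through Tc 2D, so this count too is a description. With the CPM as deposited, the median of all genes shifted to -0.17 and the split to 18.3% higher and 30.7% lower. With library-size scaling and no TMM against WT they shifted to a median of 0.25 and 35.7% higher and 16.0% lower. In both 7 members were called higher, but not the same ones. With the deposited CPM Tfap2c was called higher (0.73) and Tfap2a was not (0.10). Without TMM against WT Tfap2a was called higher (1.39) and Tfap2c lower (-0.84).

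**Figure D2:**
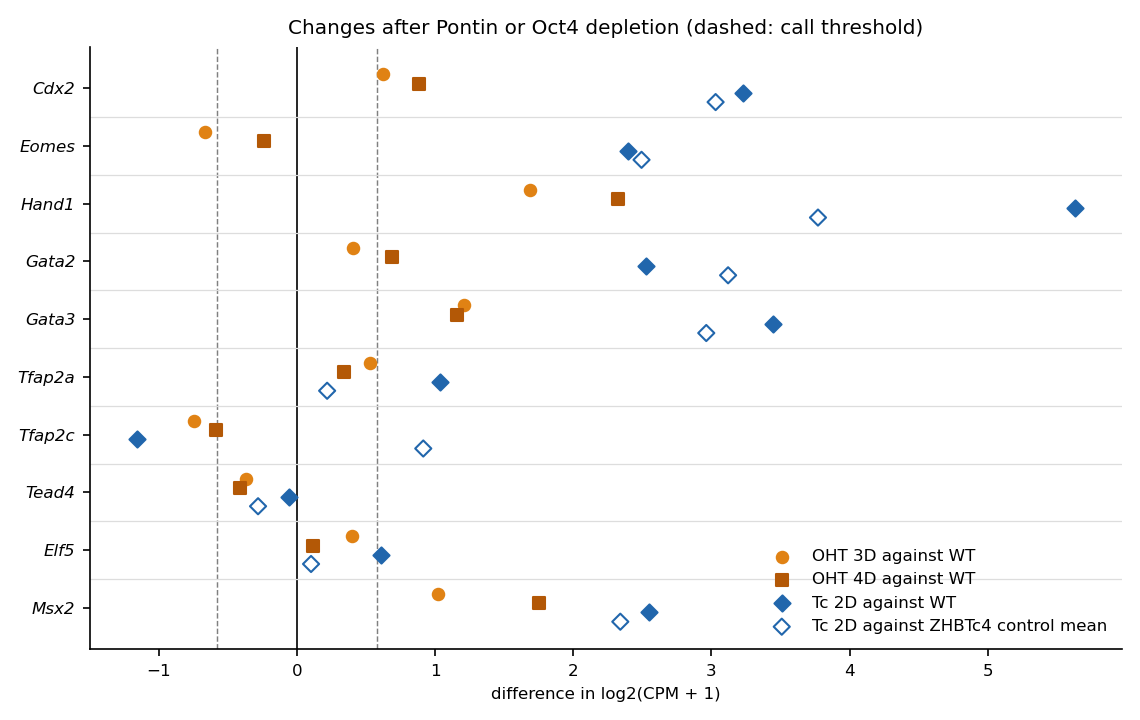
Difference in log2(CPM + 1) of each member at OHT 3D, OHT 4D and Tc 2D against WT (filled) and at Tc 2D against the mean of the ZHBTc4 control libraries on a common scale (open); dashed lines mark the call threshold of 0.58. Cdx2, Eomes, Hand1, Gata2, Gata3 and Msx2 lie above 2 at Tc 2D with either control, and Tfap2c changes side from -1.16 to 0.92.

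The undepleted lines themselves differed in these genes. On the common scale the ZHBTc4 controls were above WT by 1.94 in log2(CPM + 1) for Hand1 and by 0.86 for Tfap2a. For Tfap2c they were below WT, with a difference of -2.06. Gata2 (-0.56), Gata3 (0.56), Elf5 (0.55), Cdx2 (0.29), Msx2 (0.27), Tead4 (0.24) and Eomes (-0.07) differed by less than the call threshold. Hand1 and Tfap2c were thus the members in which the available controls differed most. Line, virus and sequencing table cannot be told apart in these differences.

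After loss of Pontin fewer members were called than at Tc 2D, a difference that was not tested. Fewer of all genes were called as well, since 23.9% were higher and 25.8% lower at Tc 2D. At OHT 3D, 4 members were called higher (Cdx2, Hand1, Gata3 and Msx2) and 2 lower (Eomes and Tfap2c), beside 6.01% of genes called higher and 5.88% called lower. At OHT 4D, 5 were called higher (the same 4 and Gata2) and 1 lower (Tfap2c), beside 6.48% and 8.89%. Every member called higher at either day except Gata2 passed the filter only through a library other than WT. With a pseudocount of 3, calls came to 2 higher and 1 lower at OHT 3D and to 2 higher and 0 lower at OHT 4D, beside 3.31% and 3.70% of all genes on day 3 and 3.69% and 6.45% on day 4.

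Hand1 changed most, with 6 reads in WT and 68 and 122 after 3 and 4 days of OHT, a fold of 11.5 (5.01 to 32.3) and of 19.9 (8.89 to 55.4). Gata3, on 7, 45 and 44 reads, was 6.51-fold (2.91 to 17.1) and 6.16-fold (2.75 to 16.2) above WT, at nearly the same level on both days. Msx2, on 14, 51 and 102 reads, was 3.69-fold (2.01 to 7.21) and 7.14-fold (4.07 to 13.5) above WT. These 3 genes were higher on both days by more than the counting of reads allows, as were Cdx2 and Gata2.

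Cdx2 had 2 reads in WT and 15 and 23 after OHT, ratios of 7.59 (1.77 to 68.4) and 11.3 (2.78 to 98.6) with wide intervals, and its log2-fold-changes were 0.62 and 0.88. Gata2, on 94, 130 and 169 reads, had log2-fold-changes of 0.40 and 0.69 on days 3 and 4. It was 1.40-fold (1.07 to 1.85) and 1.76-fold (1.36 to 2.29) above WT. Tfap2a had values of 0.53 and 0.34 and was called on neither day. At OHT 3D it passed the threshold with a pseudocount of 0.5 (0.74) and with library-size scaling without TMM (0.62). For Cdx2 and Tfap2a the sign was the same on both days, while the size rested on few reads.

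Tfap2c was lower on both days, with a fold of 0.594 (0.566 to 0.624) at OHT 3D and 0.665 (0.634 to 0.697) at OHT 4D. Its log2-fold-change of -0.59 at OHT 4D stood next to the threshold and was not called with library-size scaling without TMM. Eomes was 0.581-fold of WT at OHT 3D (0.448 to 0.750) and 0.829-fold at OHT 4D (0.659 to 1.04). Tead4 had log2-fold-changes of -0.37 and -0.41 and was not called.

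Between the OHT libraries, 4 members differed beyond counting error. Msx2 was 1.94-fold (1.37 to 2.77), Hand1 1.74-fold (1.28 to 2.37) and Eomes 1.43-fold (1.10 to 1.87) higher at OHT 4D than at OHT 3D. Tfap2c was 1.12-fold higher (1.06 to 1.18). The intervals of Cdx2, Gata2, Gata3, Tfap2a, Tead4 and Elf5 included no change.

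Markers of other cells moved in the same libraries. All 13 fibroblast markers that passed the filter, of 15 listed, were called higher at both OHT 3D and OHT 4D, and the 15 summed to 36.2 CPM in WT, to 309 and 368 on the 2 OHT days and to 44.0 after tetracycline. Lum was at 0 in WT and at OHT 3D, and Postn, Lum, Dcn and Acta2 were at 0 at Tc 2D, where 2 of the 13 were called higher, Pdgfrb (3.93) and Col5a2 (1.05), and 5 lower, led by Acta2 (-2.79) and Col1a2 (-1.50). Against the ZHBTc4 controls 9 passed, of which 1 was higher (Pdgfrb, 1.32) and 5 lower, with Col5a2 at 0.15. Hand1, Gata2, Gata3 and Msx2 are also used by mesenchymal or other differentiated cells, and the part of such cells in their rise after OHT was not tested. In bulk libraries, more cells of a type and more RNA per cell cannot be told apart.

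Primitive endoderm markers, of which 9 of 10 were matched and 8 passed, summed to a CPM of 298 in WT, 451 and 623 after 3 and 4 days of OHT, and 504 after tetracycline. Called higher were 3, 7 and 4 of them, and 0 were called lower in any of these libraries. Sparc alone had 208, 273, 401 and 209 in the same order, and Col4a1 had 33.3, 95.6, 129 and 206. Sox17 passed only through OHT 4D, where it was called higher, so these counts are a description. At Tc 2D the largest rises were Col4a1 (2.59) and Gata6 (1.97), the lowest values were Sox7 (-0.43) and Gata4 (-0.12), Sox17 (0.00) and Sparc (0.01) were near 0, and the median of the list was 0.30. Against the ZHBTc4 controls 7 passed, without Sox17, with 4 called higher, 0 lower and a median of 0.74, and Gata4 (1.48) was called higher, as was Gata6 (2.28). Gata6 was below a CPM of 1 in both controls. The 10 mesoderm markers summed to 4.38, 10.4, 8.80 and 13.5 in the same order, with 4 passing the filter and 1, 1 and 3 called higher. Tbx20 (1.46) and Foxf1 (1.25) led at Tc 2D, where Tbx6 had 0.59 and T had -0.34. Foxf1 and Tbx6 passed only through Tc 2D and T only through OHT 4D. Each was called higher in the library through which it passed, so these counts are a description. Mesp1, Evx1, Foxf1 and Hand2 were at 0 in WT, and Evx1 at Tc 2D. The 10 surface ectoderm and neural crest markers summed to 15.2, 30.3, 30.1 and 29.0, and 4 passed, of which 3 were called higher on each OHT day. At Tc 2D Dlx3 (3.04) was called higher, Foxd3 (-1.68) and Sox10 (-0.72) were called lower, and Twist1 had -0.09. Pax3, Trp63 and Dlx5 were at 0 in WT. Their part in the levels of Tfap2a, Msx2, Hand1 and Eomes was not tested.

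**Figure D3:**
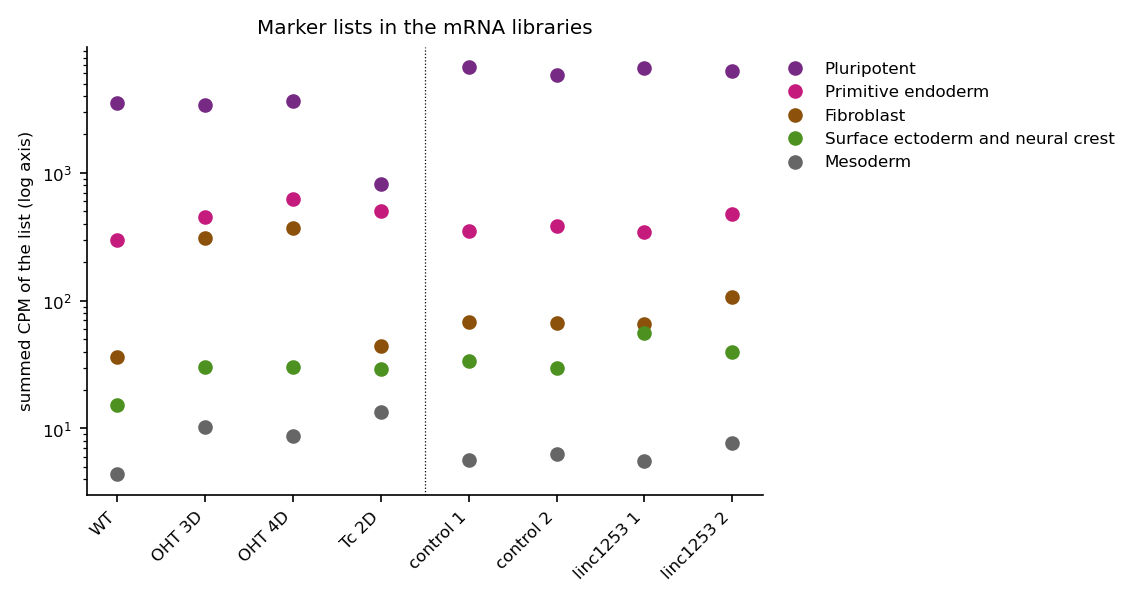
Summed CPM of 5 marker lists in each mRNA library on a log axis, with the dotted line between the 2 separately normalized tables. The fibroblast sum rises from 36.2 in WT to 309 and 368 after OHT but is 44.0 at Tc 2D, where the pluripotent sum drops to 825.

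All 12 pluripotency genes passed the filter. They summed to 3510 CPM in WT, to 3399 and 3641 on the OHT days and to 825 after tetracycline, where 10 were called lower, led by Fgf4 (-5.10) and Klf2 (-4.09), and 1 higher (Tbx3, 1.28), with Zfp42 at 0.31. Against the ZHBTc4 controls on the common scale 11 were lower and 0 higher, with Zfp42 at -3.58 and Tbx3 at 0.27. At OHT 3D none of them was called in either direction, and at OHT 4D 1 was higher and 1 lower.

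The other genes of the pathway were read from lists chosen by name. Of 17 Hippo and TEAD pathway genes, all of which passed, 2 were called higher and 0 lower on day 3 of OHT, 2 higher and 2 lower on day 4, and 7 higher and 3 lower after tetracycline, with medians of 0.20, -0.02 and 0.42 beside -0.02, -0.00 and -0.06 over all genes tested. At Tc 2D the largest rises were Lats2 (2.70), a kinase that keeps Yap1 out of the nucleus, and Vgll4 (1.60), which competes with Yap1 for TEAD proteins, and the largest falls were Nf2 (-0.95), an upstream activator of the pathway, and Tead2 (-0.79). Against the ZHBTc4 controls on the common scale, 7 were higher and 0 lower, with a median of 0.35 beside 0.01 over all genes. There Lats2 had 1.17 and Vgll4 0.85, Amotl2 (1.75) and Lats1 (1.503) were highest, and Nf2 and Tead2 had -0.46 and -0.44.

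Of 14 other trophoblast transcription factors, 12 passed, and 8 were called higher and 4 lower at Tc 2D, with a median of 0.79. Esx1 (3.03) and Rhox6 (2.05), homeobox genes of the placenta, rose most, and Sox15 (-3.34) and Esrrb (-3.19), which ES cells use as well, fell most. Against the ZHBTc4 controls 13 passed, with 6 higher and 4 lower and a median of -0.05. Gcm1 (-0.08) was the gene that entered, so the 2 medians are not over the same genes. On each OHT day 3 were called higher and 0 lower.

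Of 19 genes of trophoblast epithelium and placenta, 17 passed. At Tc 2D 9 were called higher and 7 lower, with a median of 0.91, led upward by Krt18 (3.08), a keratin of simple epithelium, and Dsp (2.73), a desmosome protein, and downward by the tight junction genes Cldn6 (-2.21) and Cldn7 (-1.60). Against the ZHBTc4 controls 12 were higher and 1 lower, with a median of 1.35, with Cldn6 at -0.36 and Cldn7 at 0.76. The calls of Cldn7 and of Cldn4, another tight junction gene (-0.86 against WT and 1.35 against the controls), thus turned from lower to higher with the control. At OHT 3D 3 were higher and 3 lower, and at OHT 4D 8 were higher and 1 lower. Prl3d1, a lactogen of giant cells, was at 0 in all 8 libraries.

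The genes whose pattern was most like the members with the largest log2-fold-change at Tc 2D were found by the distance over 4 log2-fold-changes (OHT 3D, OHT 4D, Tc 2D and linc1253 knockdown) among 12354 genes. For Hand1 the nearest was Tinagl1 (distance 0.457), with values of 1.48, 2.66, 5.41 and -0.50 beside 1.68, 2.32, 5.63 and -0.44 for Hand1, followed by Alcam and 3830417A13Rik at 1.37 and 1.73. For Gata3 they were Pdzrn3 (0.405), Dlx3 (0.476) and Lyn (0.530), and for Cdx2 App (0.162), Steap3 (0.238) and Glrx (0.243). These distances use log2(CPM + 1), which understates changes at a low level. Cdx2, on 2 reads in WT, entered with 3.23 at Tc 2D for a fold of 103.

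The linc1253 knockdown was the only comparison with replicates. With limma on log2(CPM + 1), 0 of the 8 members that passed the filter and 0 of 13407 genes (0%) had an adjusted p under 0.05. Of the 8 members, 1 (Tfap2c) had an unadjusted p under 0.05, as had 999 of all genes. The quasi-likelihood test of edgeR called 0 members, and DESeq2 called 1, Tfap2c, beside 0.422% of 11847 genes. Cdx2 and Elf5 did not pass the filter.

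Tfap2c had a CPM of 52.7 and 49.7 in the control libraries and of 30.9 and 30.7 in the linc1253 libraries. Both knockdown values lay below both controls, at 60.2% of the control mean, and the gap was larger than the spread within either pair (51.2 ± 2.09 and 30.8 ± 0.133, SD, n = 2 each). The log2-fold-change was -0.71 ± 0.097 (SE), with an adjusted p of 0.406 in limma, 0.425 in edgeR and 0.00136 in DESeq2.

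Hand1 had 5.35 and 3.23 in the controls and 2.86 and 2.76 after knockdown, 65.6% of the control mean. The knockdown values lay below both controls, but the controls differed from each other by more than the lower of them differed from the knockdown. The log2-fold-change was -0.44 ± 0.22 (SE), with an adjusted p of 0.707 in limma, and the value was -0.15 without control replicate 1 and -0.74 without control replicate 2. Tfap2a (1.94 and 1.63 against 1.39 and 1.27) and Elf5 (0.646 and 0.344 against 0.335 and 0.263) also lay lower without overlap, and Msx2 (1.25 and 0.903 against 1.44 and 1.67) lay higher. The values of Elf5 rested on 14 and 8 against 13 and 6 reads.

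The controls and knockdown libraries of the other members overlapped. Cdx2 had 0.415 and 0.301 against 0.387 and 0.219, Eomes 8.21 and 7.87 against 9.15 and 7.94, and Gata3 1.20 and 0.860 against 1.42 and 1.01. Gata2 had 3.32 and 2.45 against 2.76 and 2.76, and Tead4 39.6 and 40.0 against 36.1 and 39.9. In all, 5 of the 10 members had groups that did not overlap, 4 of them among the 8 that passed the filter, beside 38.0% of all genes tested. The summed CPM of the fibroblast markers was 67.8 and 66.8 in the controls and 66.2 and 106 after knockdown, and its part in these values was not tested.

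**Figure D4:**
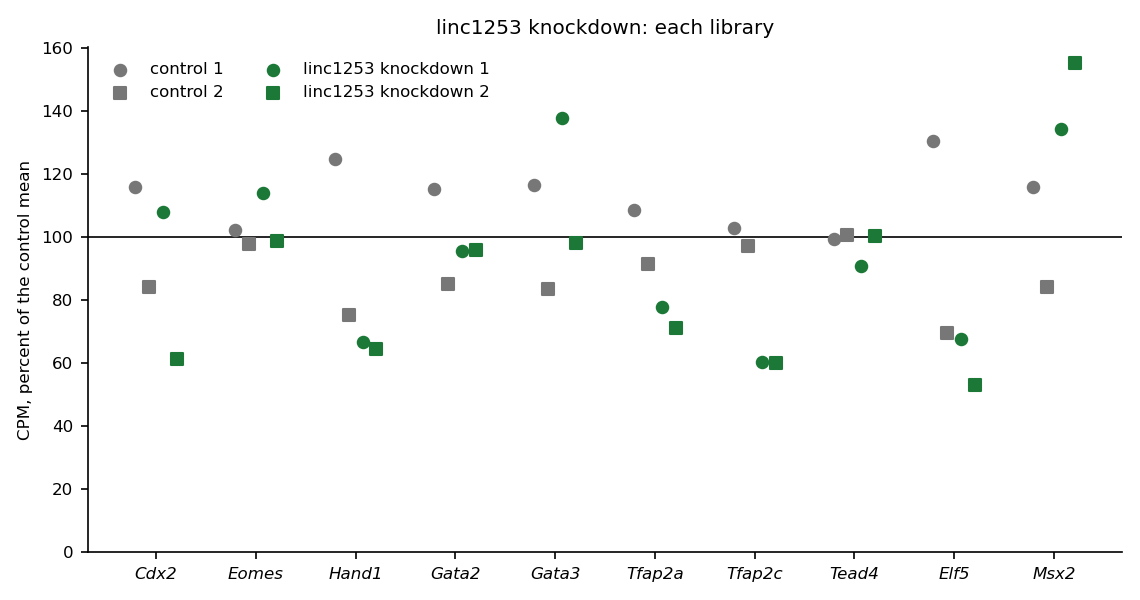
CPM of each member in the 2 control and 2 linc1253 knockdown libraries, as a percent of the mean of the controls; each point is 1 library. Both knockdown points of Tfap2c lie near 60.2% with the controls close to 100%, and Hand1, Tfap2a and Elf5 also lie lower and Msx2 higher without overlap. Elf5 did not pass the filter and had 6 to 14 reads a library. Of all genes tested, 38.0% did not overlap in either direction.

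For the Pontin ChIP, reads were counted from 2.5 kb before to 500 b after the annotated start site and scaled by library size (40729076 reads for Pontin, 17185883 for GFP), with a log2 ratio above 1 as a call. Over 21178 promoters the median log2 ratio was 0.34, with an SD of 0.71, and 14.8% were called. Of the 10 members 3 were called, Tead4, Hand1 and Gata3, and 7 lay above the median promoter. With 1 library per antibody the ratio has no replicate check, and because mates were counted as separate reads the counting intervals are too narrow.

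Tead4 had 86 Pontin and 14 GFP reads, a log2 ratio of 1.37 (95% interval 0.55 to 2.30) at the 94.2 percentile of all promoters. Hand1 had 46 and 9 reads (1.11, 0.06 to 2.33) and Gata3 81 and 17 (1.01, 0.24 to 1.86). Among the 3, only the interval of Tead4 lay wholly above the median promoter. Gata3 fell to 0.32 with 1 read kept per position and strand and Hand1 to 0.97, which left Tead4 as the sole call, as did scaling by the median ratio. Of all promoters, 11.8% and 6.13% were called under these settings. With 1 kb either side of the start, Cdx2, Hand1 and Tead4 were called and Gata3 (0.04) was not, beside 26.3% of promoters.

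The window of Gata3 was laid on an annotated start that stands 11434 bases upstream of the RefSeq start, at which the promoter printed above lies. The same window on the RefSeq start had 100 Pontin and 28 GFP reads, a log2 ratio of 0.59 (-0.03 to 1.25), below the call threshold. The other printed promoters lay within the windows used.

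Cdx2, with 59 and 13 reads, had a log2 ratio of 0.94 (0.05 to 1.93), just under the threshold, and of 1.20 in a window of 1 kb either side of the start, and Eomes, with 93 and 26, had 0.59 (-0.05 to 1.28). Msx2 (0.40), Tfap2a (0.37) and Tfap2c (0.32) lay next to the median promoter. Elf5 (-0.24) and Gata2 (-0.53, with an interval of -1.15 to 0.11, wholly below the median promoter) were the lowest, but Gata2 had 0.99 in the 1 kb window, so its place depended on the window. At the upstream RefSeq start of Elf5 the log2 ratio was 0.17 (-0.64 to 1.04), and at its downstream start it was -0.51 (-1.23 to 0.24). At the second start of Gata2 it was 0.31 (-0.30 to 0.96). The sign thus differed between start sites of either gene, and each of these intervals held 0. Tead4, the highest in the window of 2.5 kb before to 500 b after the start, was not called in any mRNA comparison. In the 1 kb window Cdx2 and Hand1 (1.20 each) lay above Tead4 (1.10), and Elf5 (-0.66) was the lowest.

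**Figure D5:**
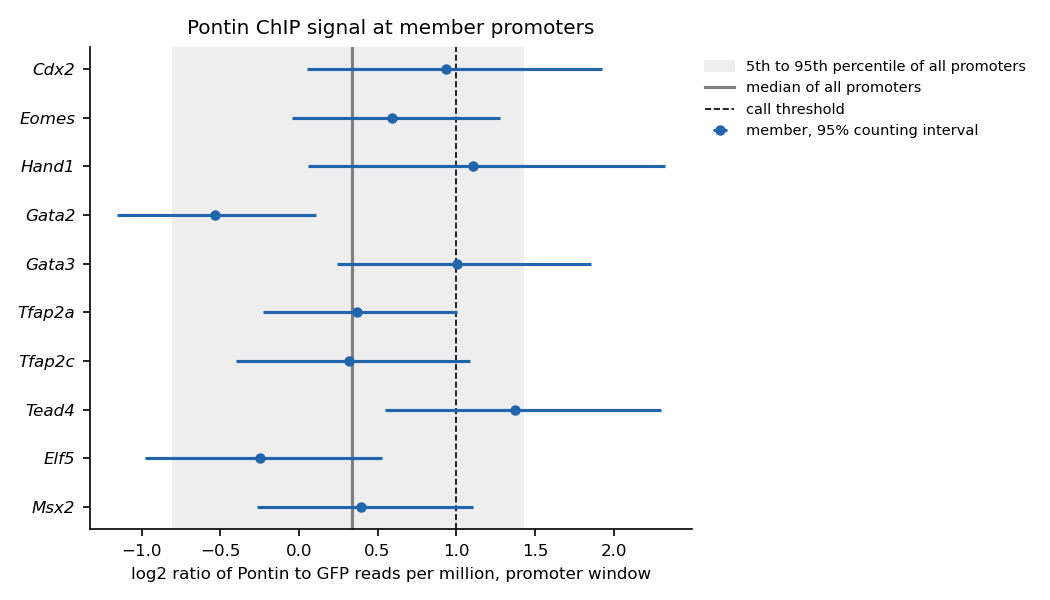
Log2 ratio of Pontin to GFP ChIP reads, scaled by library size, in the promoter window of each member, with the 95% counting interval (bars); the grey band spans the 5th to 95th percentile of all promoters, the solid line their median of 0.34 and the dashed line the call threshold of 1. Tead4 lies highest at 1.37 and Gata2 lowest at -0.53, and all 10 points lie within the grey band.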

How the data were processed

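mRNA of 8 libraries and ChIP DNA of 2 were sequenced. The authors trimmed reads with cutadapt, aligned mRNA to NCBIM37 with TopHat, counted genes with HTSeq and deposited CPM after TMM normalization in edgeR, 4 libraries to each of 2 tables. The kit does not mark strand and the HTSeq strand setting is not given in the sources used here, so reads of antisense genes cannot be told apart. All values (100%) were whole multiples of 1 read, to within 0.01 read. ChIP reads were aligned with Bowtie2 and deposited as 1 line per read with a mapping quality score. Genes at a CPM above 1 in at least 1 library of the table were tested on log2(CPM + 1), with a call past 0.58, as in the study's methods. For linc1253 knockdown limma 3.58.1 with trend and Benjamini-Hochberg adjustment was used, and edgeR 4.0.16 and DESeq2 1.42.0 on recovered reads. The limma, edgeR and DESeq2 fits were tested on simulated counts of independent libraries, and the motif search on short sequences with known answers. Symbols were matched for 22337 of 22713 IDs. Level order used merged exons. Members, lists and markers were chosen with earlier results of these data known. All members are named, with the 2 highest and 2 lowest values of each list at Tc 2D and the 3 nearest genes of 3 members, and other genes named (those at 0 reads, Sox17, Sparc, Amotl2, Lats1, Gcm1 and Cldn4) were picked after their values were seen. Dab2 was not matched. Alternatives were pseudocounts of 0.5 and 3, other filters (none, a CPM of 5), other scalings, a threshold of 1, ZHBTc4 controls, a replicate block, leaving out each library, and, for ChIP, 1 read per position and strand, 1 kb windows and, chosen after seeing the data, RefSeq starts. Python 3.11.15 and R 4.3.3 were used. Intervals (exact binomial, 95%) and the limit of 3 reads hold only counting error, because PCR copies were not separated from molecules.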

Additional observations from a re-analysis of the deposited data

How the results depend on the processing

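Of 311 values of single members under the alternatives, 290 shifted by at most 0.5 times the width of the counting interval or stayed on their side of the test. Of the others, 16 moved further, 3 became significant and 2 reversed. The intervals are of ratios without a pseudocount, so a value among the 290 could lie outside its own interval. A change of filter leaves a log2-fold-change as it is, so those values could not move. At a low level the interval is wide, and some values among the 290 lost their call. Tfap2a at Tc 2D went from 1.04 to 0.22 with the ZHBTc4 controls on a common scale, and Cdx2 at OHT 3D from 0.62 to 0.25 with a pseudocount of 3. The reversed values were those of Tfap2c at Tc 2D, which was 0.73 against the ZHBTc4 controls as deposited and 0.92 on a common scale, against -1.16 with WT, and the members called lower at Tc 2D went from 1 to 0 under both. With a pseudocount of 3, members called went from 6 to 3 at OHT 3D (2 higher, 1 lower) and from 6 to 2 at OHT 4D (2 higher, 0 lower). With a threshold of 1 they went to 3 (0 lower) at OHT 3D and to 3 (3 higher, 0 lower) at OHT 4D. The share of all genes past a threshold of 1 was not counted, so these numbers have no background and are not read further. With library-size scaling without TMM, 0 members were lower at OHT 4D, beside 8.03% of all genes. At OHT 3D that scaling gave 5 members higher and 2 lower, beside 7.39% and 5.50% of all genes. A pseudocount of 0.5 also gave 5 higher and 2 lower at OHT 3D, beside 7.55% and 7.21%. After linc1253 knockdown the call count was 0 in limma, 1 in DESeq2 (Tfap2c) and 0 to 0 on leaving out each library in turn. The log2-fold-change of Hand1 ranged from -0.74 to -0.15 over those fits, and that of Tfap2c from -0.75 to -0.67. With the replicate number as a block in limma it was 2, Tfap2c (adjusted p = 6.72e-07) and Hand1 (adjusted p = 0.0467), and 14.6% of all genes were called. Same-numbered libraries deviated together (correlation 0.673 over genes, 2 pairs), but nothing in the labels says that a number marks a shared culture or day. In the ChIP, members called went from 3 to 1 with 1 read per position and strand and to 1 with median-ratio scaling, and stayed at 3 with 1 kb windows, where Cdx2 replaced Gata3. The low read counts of Cdx2, Hand1, Gata3, Elf5 and Msx2 in WT limit the precision of their folds.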
